A study of Mus musculus with 78 samples.

Results

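The genes described here rose late after loss of TRIM28 from mouse embryonic stem cells (mESCs): their transcripts were near the control level after 24 h of degradation and several-fold higher after 96 h. Members were chosen on the mean TPM (transcript abundance scaled to the same sum in each library) of 3 RNA-seq libraries per group in the degradation time course. A gene was kept when its 96 h mean was at least 5 TPM, when its 96 h mean exceeded the DMSO mean at least 5-fold after adding 1 TPM to both, and when the same ratio at 24 h was at most 1.3. Genes whose names place them among collagens, laminins, Hox, Wnt, Gata, protocadherin, Slit, Robo, Vnn, histone, microRNA or mitochondrial genes, and gene models named Gm or ending in Rik, were left out. The rule found 165 genes among 54446 gene identifiers, or 0.921% of the 17922 genes that passed the filter on low values in the time course, while 36 further genes met the numbers but carried one of those names. Of the 165 genes, 163 are annotated as protein-coding, 1 as a processed transcript (AC131339.2) and 1 as a processed pseudogene (Krt8-ps), which can share reads with Krt8. Because the values at 24 h, 96 h and in DMSO chose the genes, those values are given as a description, without a test.

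The cells were V6.5 mESCs in which the degradation tag FKBP was fused to the N terminus of endogenous TRIM28, a corepressor of endogenous retroviruses (ERVs), with mRuby2 made from the same transcript, in a line grown from picked single colonies. The small molecule dTAG-13, at 500 nM, recruits the tagged protein to a ubiquitin ligase for proteasomal degradation. Time-course libraries were polyadenylated RNA from cells given DMSO or dTAG-13 for 2 h, 6 h, 24 h or 96 h after removal of feeder fibroblasts, and nascent RNA was measured by TT-SLAM-seq, which captures RNA labelled with 4-thiouridine, in DMSO and at 2 h, 6 h and 24 h. A second tagged line, here called shERV, carried doxycycline (Dox)-inducible short hairpin RNAs against 4 ERV families (IAP, MMERVK10C, MMERVK9C and MMETn), was kept on feeder fibroblasts according to its deposited protocol, and was sequenced as ribosome-depleted total RNA after 24 h of DMSO, of dTAG-13, or of dTAG-13 with Dox. The deposited protocol mentions a day of Dox before treatment for all 3 shERV groups, whereas the study describes Dox for the third alone, so the groups here follow the sample titles, and Dox exposure of the other groups is uncertain. Untreated parental V6.5 mESCs, with the same note on feeders, and DMSO-treated neural progenitor cells (NPCs) gave polyadenylated RNA. The study's methods describe feeder depletion before RNA-seq in general, so whether the shERV and parental RNA came from depleted cells is uncertain. ChIP-seq peaks for H3K27Ac, H3K9me3, RNA polymerase II (RNAPII) and the Mediator subunit MED23 compared DMSO with 24 h of dTAG-13. Every RNA group held 3 libraries that the labels number as replicates without naming separate cultures. The study's legends call those of the time course, TT-SLAM-seq and shERV line biological, a term they elsewhere use for wells of a plate. The p-values measure the spread between these libraries, which may be that of wells or, for parental cells and NPCs, technical.

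Embryonic stem cells usually hold less RNA of contractile and spreading genes than the differentiated cells that use them. In the tagged cells in DMSO such genes were not silent, with mean Tagln at 300 TPM and Vim at 188 TPM. Smooth muscle actins, transgelin and caldesmon build actin bundles that pull on the matrix, and in many cell types they are controlled by serum response factor with its actin-regulated cofactors and by TGF-beta signals. Keratins 8 and 18 pair into the intermediate filaments of simple epithelia, including the first extraembryonic layers, and vimentin forms those of mesenchyme. Genes of both kinds are known to appear when pluripotent cells leave the naive state and attach and spread.

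Markers of the time-course DMSO cells and of NPCs fitted the labels, pluripotency genes were much lower at 96 h, and a few libraries stood apart. The summed level of a list of 20 pluripotency genes was 4374 to 4556 TPM in the time-course DMSO libraries, 2703 to 2863 at 24 h and 631 to 701 at 96 h, with Pou5f1 falling from 1141-1181 TPM in DMSO to 93.7-116 TPM at 96 h, while NPCs held Sox1 at 174 to 187 TPM, Pax6 at 130 to 135 TPM and Pou5f1 at 0. In shERV DMSO mean Pou5f1 was 418 TPM and Esrrb 56.7 TPM, against 1447 and 487 TPM in parental cells. Library kits differ between these groups. Trim28 mRNA, which dTAG-13 does not target, was 622 to 626 TPM in DMSO and 185 to 204 TPM at 96 h, so it is no check of the degradation. Relative depth, estimated from deposited coverage per TPM, ran from 0.280 (24 h replicate 1) to 1.52 of the median RNA-seq library, and replicate 1 of the shERV DMSO group stood apart from the other two, with an SD of log2 ratios among well-expressed genes of 0.525 against replicate 2. In bulk samples such as these, more RNA per cell and more cells of one kind cannot be told apart.

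The median of the 165 genes' mean levels was 5.08 TPM in DMSO, 4.90 TPM at 2 h, 5.41 TPM at 6 h, 4.79 TPM at 24 h and 41.6 TPM at 96 h. The genes started from very different levels: 32 had a DMSO mean under 1 TPM, 78 between 1 and 10 TPM and 55 at 10 TPM or above. At 96 h, 49 genes had a mean of at least 100 TPM and 8 of at least 1000 TPM (Krt18, Krt8, Tagln, Lgals1, S100a11, Sparc, Vim and Acta2). Summed over the members, the level was 4122 to 4241 TPM in the DMSO libraries, 3699 to 4053 TPM at 24 h and 30597 to 31164 TPM at 96 h, and 5 genes made up 39.0% of the 96 h sum. The 96 h replicates were close, with a median coefficient of variation of 3.14% and a highest one of 15.9%, for Rspo3.

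**Figure D1:**
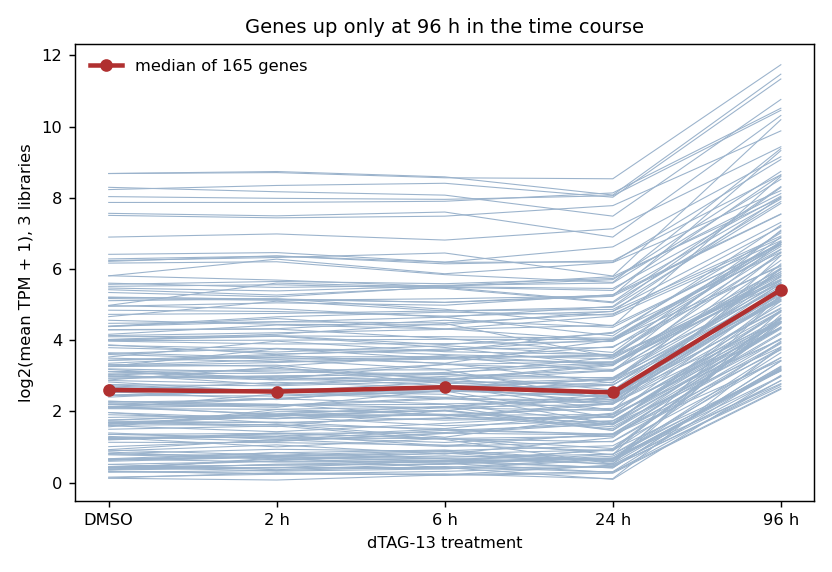
Mean level of each of the 165 genes (thin lines, 3 libraries per point) on a log2(TPM + 1) axis in DMSO and at 2, 6, 24 and 96 h of dTAG-13, which are spaced evenly and not by time. The thick line is the median over genes. The lines run nearly level up to 24 h and all rise at 96 h, which the rule fixed.

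The rule left a range of behaviour at 24 h, when 66 genes had a ratio to DMSO under 1 and 38 had one of 1.2 to 1.3. The lowest 24 h ratio was 0.463, and the median was 1.04. At 24 h, 48 genes lay above and 33 below DMSO without overlap of the libraries, as 43.9% and 26.2% of all tested genes did, and 0 were called higher and 2 lower, where 10.1% and 2.01% of all tested genes were. Nothing is read from these shares, since the rule set them. Just inside the limit stood Phlda3, Fzd1 and Sox17, each with a ratio of 1.3 at 1 decimal, and just outside it Nkx2-5 and Igfbp5, each at 1.31. At the other limit the lowest 96 h ratios inside were those of Cmtm7 (5.04) and Fkbp10 (5.05), and the highest outside were those of Klrg2 (4.98) and Dpysl3 (4.97), so the list is a slice of a continuous range. Its largest 96 h ratio was 17.8, for Cryab.

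Of a list for actin cytoskeleton and contraction, 11 of the 38 measured genes (28.9%) were members. Acta2, Actg2, Tagln and Cald1 were the contractile genes among them. Of 39 measured myosins and tropomyosins, 0 were members, where 0.921% of all tested genes were, so nothing is read from their absence. Acta2, the smooth muscle alpha actin (chr19:34241090-34255336, minus strand, mm10), was at 74.0, 72.3 and 77.4 TPM in the DMSO libraries, at 54.5, 48.9 and 61.2 TPM at 24 h and at 1198, 1133 and 1181 TPM at 96 h. Its 24 h libraries lay below every DMSO library, and its 96 h libraries were 15.7-fold above DMSO on the means. Actg2, the gamma actin of visceral smooth muscle, had 1.55, 1.17 and 1.18 TPM in DMSO, 0.886, 0.655 and 0.629 TPM at 24 h and 38.9, 36.0 and 38.8 TPM at 96 h. It too was lower in each 24 h library than in any DMSO library.

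Tagln (chr9:45929619-45936058, minus strand), whose product transgelin binds actin filaments, was among the most abundant members, with 293, 309 and 297 TPM in DMSO, 238, 242 and 294 TPM at 24 h and 2589, 2525 and 2651 TPM at 96 h. Cald1, encoding the actin- and myosin-binding protein caldesmon, had 193, 179 and 171 TPM in DMSO, 208, 221 and 228 TPM at 24 h and 967, 963 and 895 TPM at 96 h. Cald1 therefore lay above DMSO at 24 h without overlap while Tagln did not. The remaining members of the list were the focal adhesion adaptor Tgfb1i1, the secreted matricellular protein Ctgf, vimentin and the calcium-binding proteins Anxa1, Anxa5, S100a6 and S100a11. Of the 27 measured genes of this list that are not members, 24 were higher and 1 lower at 96 h by limma with Benjamini-Hochberg adjustment (adjusted p under 0.05 and more than 2-fold), where 20.3% of all tested genes were higher and 12.4% were lower.

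**Figure D2:**
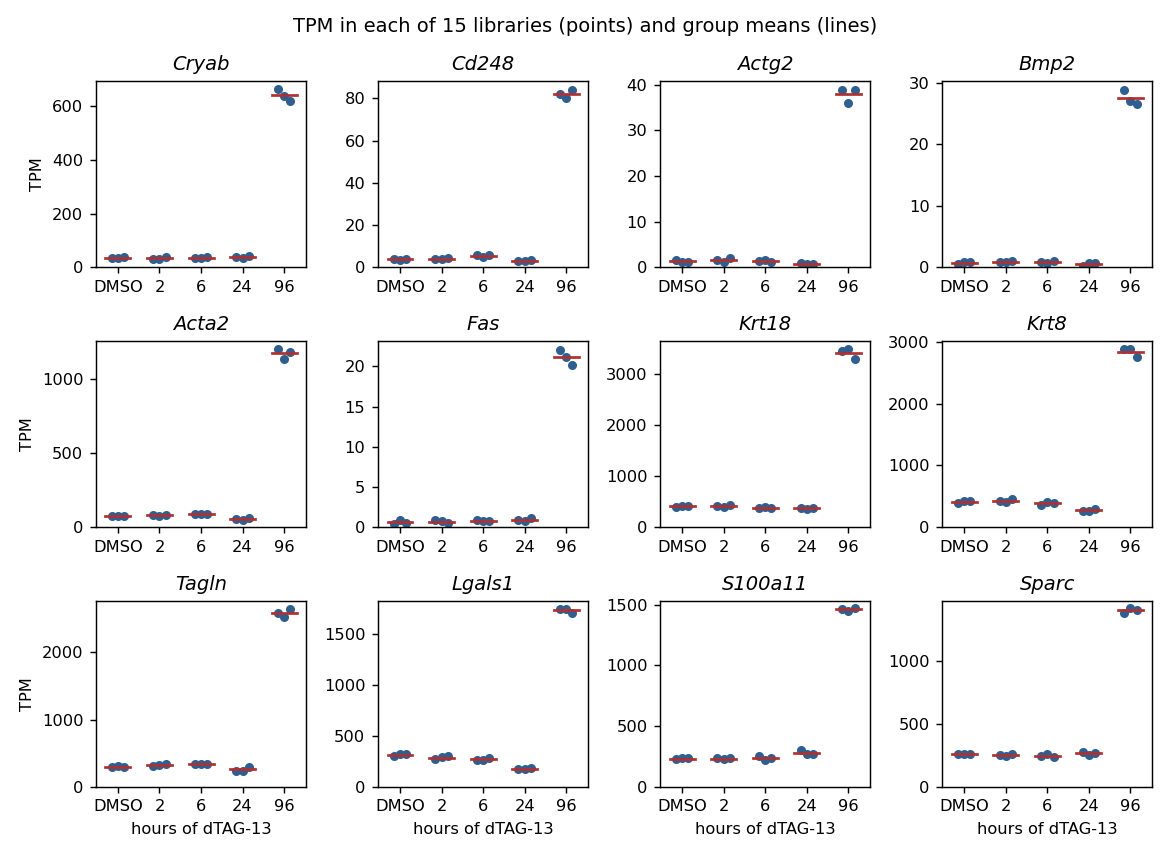
TPM (linear axes from 0) of 12 members in each of the 15 time-course libraries, as points, with group means as lines, for DMSO and 2, 6, 24 and 96 h of dTAG-13. Panels are the 6 largest 96 h ratios and the 6 most abundant members at 96 h. In every panel the 96 h points stand apart, and Acta2, Actg2, Krt8 and Lgals1 dip at 24 h.

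Cryab (chr9:50751325-50756636, plus strand), a small heat shock protein that protects the cytoskeleton and is abundant in muscle and lens, had 33.2, 34.0 and 37.9 TPM in DMSO and 36.5, 34.2 and 40.3 TPM at 24 h. At 96 h it was at 663, 638 and 621 TPM, 18.3-fold above DMSO. Cd248, a transmembrane protein of mesenchymal and perivascular cells, went from 3.95, 3.32 and 4.06 TPM in DMSO to 82.2, 80.2 and 84.1 TPM at 96 h. Caveolae were represented by Cav1 (7.69 TPM on average in DMSO, 55.0 TPM at 96 h) and by the coat proteins Cavin1 (46.5 and 277 TPM) and Cavin3 (2.39 and 17.6 TPM), with the caveolar ATPase Ehd2 at 5.58 and 36.0 TPM.

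The intermediate filament genes held the highest values of all. Krt18 (chr15:102028180-102032027, plus strand) had 401, 422 and 407 TPM in DMSO, 381, 346 and 383 TPM at 24 h and 3457, 3493 and 3294 TPM at 96 h. Its partner Krt8 (chr15:101996698-102004482, minus strand), 23698 bases away, had 395, 422 and 415 TPM in DMSO, 266, 252 and 290 TPM at 24 h and 2883, 2887 and 2757 TPM at 96 h. Both dipped below every DMSO library at 24 h before their rise. Vim (chr2:13573927-13582826, plus strand) was likewise lower at 24 h (116, 111 and 127 TPM) than in DMSO (177, 195 and 193 TPM) and reached 1266, 1257 and 1290 TPM at 96 h. Dsp, which anchors keratins at desmosomes, rose from 16.5 to 103 TPM on the means and Perp, another desmosomal protein, from 44.7 to 237 TPM.

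Of the calcium-binding annexin and S100 proteins, 4 of the 19 measured genes were members. S100a6 was at 74.0, 68.8 and 69.8 TPM in DMSO, at 49.3, 44.3 and 51.5 TPM at 24 h and at 668, 665 and 669 TPM at 96 h. S100a11 differed from it at 24 h, with 302, 267 and 273 TPM against 225, 237 and 237 TPM in DMSO, and reached 1469, 1451 and 1473 TPM. Anxa1, an annexin that binds membrane phospholipids, had 33.8, 33.6 and 33.3 TPM in DMSO, 20.6, 18.2 and 21.5 TPM at 24 h and 391, 398 and 373 TPM at 96 h. Outside that family, the galectin gene Lgals1 showed the same dip, from 299, 320 and 320 TPM to 177, 173 and 185 TPM at 24 h, and was at 1751, 1752 and 1706 TPM at 96 h. Lgals3 dipped as well, from a mean of 15.0 TPM to 8.83 TPM at 24 h, and was at 135 TPM at 96 h.

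Matrix proteins, their proteases and protease inhibitors formed a further group, with 9 of the 61 measured genes (14.8%) of a matrix and adhesion list among the members although collagens and laminins were left out by name. Sparc, a collagen-binding protein of basement membranes, had 260, 262 and 261 TPM in DMSO, 280, 250 and 267 TPM at 24 h and 1382, 1425 and 1409 TPM at 96 h. Plat, the tissue plasminogen activator, had means of 3.40 TPM in DMSO and 36.5 TPM at 96 h. Thbs1, a matricellular protein that activates latent TGF-beta, had means of 73.3 and 539 TPM, and Ctgf of 77.0 and 400 TPM. The membrane-bound metalloproteinase Mmp14 stood at 39.6 and 263 TPM beside the metalloproteinase inhibitors Timp2 at 6.97 and 86.4 TPM and Timp3 at 9.23 and 87.8 TPM. Nid1, Vcan and Ecm1 completed this list, to which Plat does not belong, and of its 52 measured genes that are not members, 37 were higher and 4 lower at 96 h.

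Signalling genes included ligands and receptors of several families. Of the TGF-beta family, Bmp2 had 0.598, 0.899 and 0.793 TPM in DMSO, 0.201, 0.659 and 0.619 TPM at 24 h and 28.9, 27.1 and 26.6 TPM at 96 h. The ligand Tgfb2 had 4.77, 4.14 and 4.64 TPM in DMSO and 48.1, 46.4 and 48.2 TPM at 96 h, and its type II receptor Tgfbr2 had 1.31, 1.64 and 1.75 TPM in DMSO and 13.2, 16.5 and 16.6 TPM at 96 h. In all, 5 of 35 measured genes of a TGF-beta and BMP list were members, and of the other 30, 20 were higher and 2 lower at 96 h. Ligands of receptor tyrosine kinases were Csf1 (21.3 TPM in DMSO, 149 TPM at 96 h on the means) and Kitl (1.02 and 9.84 TPM), and the receptor was Axl (13.6 and 106 TPM). The neuropilin Nrp1, a coreceptor for semaphorins and VEGF, had 0.887, 0.824 and 0.741 TPM in DMSO and 24.9, 23.9 and 23.0 TPM at 96 h, and its ligand Sema3c had means of 3.60 and 41.7 TPM.

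Death receptor and stress genes were also present. Fas (chr19:34290659-34327770, plus strand), the receptor for Fas ligand and a p53 target, had 0.401, 0.852 and 0.475 TPM in DMSO, 0.899, 0.722 and 1.07 TPM at 24 h and 22.1, 21.2 and 20.2 TPM at 96 h. Fas lies 35323 bases from Acta2 on the opposite strand, 1 of 8 pairs of members within 100 kb of each other. The others were Cd63 and Itga7, P3h4 and Fkbp10, the paralogs Ly6a and Ly6c1, Cdc42ep1 and Lgals1, Krt8 and Krt18, Ecscr and Tmem173, and Ctsd and Lsp1. Fas, Perp and Phlda3 were the members among 25 measured p53 targets, of which 13 of the other 22 were higher and 1 lower at 96 h.

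Several members encode transcription factors. Sox17, a factor of definitive and extraembryonic endoderm, had 1.26, 0.956 and 0.339 TPM in DMSO, 1.12, 1.78 and 1.3 TPM at 24 h and 24.4, 23.6 and 20.9 TPM at 96 h. Msx2, a homeobox factor induced by BMP in mesenchyme, had 2.46, 1.97 and 1.92 TPM in DMSO and 39.6, 39.6 and 38.1 TPM at 96 h. Hand1 of extraembryonic mesoderm and trophoblast had means of 7.24 and 63.7 TPM, Foxf1 of lateral mesoderm 0.355 and 6.28 TPM, and Zeb2, a repressor of E-cadherin, 3.42 and 31.2 TPM. Marker lists placed members in several lineages: 9 of 30 measured parietal endoderm markers were members, 4 of 27 epithelial, 3 of 22 trophoblast, 3 of 23 fibroblast and 2 of 23 mesoderm markers, and none of the measured interferon, pluripotency, 2-cell or germline genes. Members were 0.921% of all tested genes, so nothing is read from the lists that hold none.

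Feeder fibroblasts are a cell type that these cultures could hold, so their markers were followed separately from the members. The 27 markers of a fibroblast list that are not members summed to 77.7-84.7 TPM in DMSO, 335-340 TPM at 24 h and 606-613 TPM at 96 h, and to 253-257 TPM in the parental cells. At 24 h Col1a1 was at 10.1 to 12.9 TPM and Thy1 at 6.12 to 8.28 TPM, so most of the sum lay in other genes of the list. At 96 h Dpt, Fap and Mmp3 were at 0 in that list. Thy1 was at 7.67 to 7.96 TPM in DMSO, 11.7 to 12.5 TPM at 96 h and 25.1 to 26.0 TPM in the parental cells, while Col1a1 was at 7.85 to 8.58 TPM, 178 to 188 TPM and 34.2 to 36.9 TPM. Col1a2, Col3a1, Pdgfrb, Fbn1 and Twist1 were, as Col1a1 was, higher at 96 h than in the parental cells. Of the 20 of these markers that passed the filter on low values, 18 were higher and 0 lower at 96 h. The part of carried-over feeder cells in the members' levels was not tested.

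Promoter sequences were read for 122 members with an entry in the RefSeq promoter table (GRCm38.p6), in the 250 bases before the RefSeq start. The word TATAAA began 40 to 20 bases before the start, on the gene's strand, in 9 members (7.38%), against 1.25% of 11299 promoters of genes tested in the time course and 2.22% of all 27025 promoters. The 6 promoters below show the word in capitals within the last 80 bases before the start, and were chosen because their genes are described here or carry the word nearest to the start.
Vim, chr2:13574231-13574310, plus strand: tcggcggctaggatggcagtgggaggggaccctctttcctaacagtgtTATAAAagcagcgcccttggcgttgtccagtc
Anxa1, chr19:20390672-20390751, minus strand: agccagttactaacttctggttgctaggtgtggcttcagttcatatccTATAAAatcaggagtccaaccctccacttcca
Tgfb2, chr1:186705990-186706069, minus strand: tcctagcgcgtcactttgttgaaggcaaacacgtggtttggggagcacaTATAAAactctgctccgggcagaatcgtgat
Ecm1, chr3:95739570-95739649, minus strand: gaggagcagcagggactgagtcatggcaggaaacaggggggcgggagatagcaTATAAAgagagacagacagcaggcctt
Kitl, chr10:100015741-100015820, plus strand: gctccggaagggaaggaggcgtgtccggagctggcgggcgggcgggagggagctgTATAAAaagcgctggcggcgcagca
Gadd45g, chr13:51846595-51846674, plus strand: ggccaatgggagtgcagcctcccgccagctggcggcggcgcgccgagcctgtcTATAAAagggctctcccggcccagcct

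The word is that of the TATA box, which many inducible and tissue-restricted promoters carry. The other 3 members with it at this place were Emp3, Slco2a1 and Abca1. Searched on both strands of the whole 250 bases, TATAAA was in 13.1% of the members' promoters, 6.44% of those of tested genes and 13% of all promoters. The strict word of the serum response factor site (CArG box), CCWWWWWWGG with W for A or T, was in 2 members, Rnf128 and Fhl2 (1.64%, against 1.14% of tested genes). It was not in the window of Acta2, but sites that depart from the strict word were not searched for, so a site there is not excluded. GGAATG, the core word bound by TEAD factors, was in 19 members (15.6%, against 10.6% of tested genes), among them Acta2 and Cald1, printed here with it in capitals.
Acta2, chr19:34255484-34255549, minus strand: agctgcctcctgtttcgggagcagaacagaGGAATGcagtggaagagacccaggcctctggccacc
Cald1, chr6:34598321-34598386, plus strand: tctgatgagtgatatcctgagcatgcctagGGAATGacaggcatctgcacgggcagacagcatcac

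For the other words searched on both strands, shares in members and in tested genes were 5.74% and 4.05% for TGANTCA (the AP-1 word), 58.2% and 59.3% for GGGCGG (SP factors), 32.0% and 37.0% for CCAAT, and 14.8% and 15.9% for CACCTG (an E-box). The members' promoters held a median of 12 CG dinucleotides, those of tested genes 16 and all promoters 6. These are matches of letters, given without a test, and they do not show binding.

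At 2 h and 6 h of degradation none of the members was called changed. In the RNA-seq, 0 of 165 genes were higher and 0 lower at 2 h, where 0.251% and 0.123% of all tested genes were, and 0 were higher and 0 lower at 6 h, against 0.776% and 0.190%, by limma on log2(TPM + 0.5) with Benjamini-Hochberg adjustment. At an unadjusted p under 0.05 there were 47 members at 2 h and 66 at 6 h, beside 28.7% and 43.3% of all tested genes. By adjusted p without the 2-fold limit, the 2 h libraries gave 11 members up and 7 down, and those of 6 h gave 24 up and 18 down. Of all 17922 tested genes, 1478 were up and 1258 down at 2 h, and 3296 up and 2783 down at 6 h. The members' median log2 difference was 0.04 at 2 h and 0.05 at 6 h, against -0.02 and 0.03 for all genes. These comparisons share the DMSO libraries that the rule used. Only 135 of the 165 members reached 1 TPM in 3 libraries without the 96 h libraries. The others entered the fit through the 96 h group that chose them and were too low at 2 h and 6 h to be called readily, so their lack of a call says little.

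Nascent RNA gave a reading of the members that the rule did not use, since it came from other libraries. Of the 165 genes, 48 reached 0.5 FPKM (fragments per kilobase of transcript, scaled to library size) in 3 TT-SLAM-seq libraries and 117 did not. None of the 48 was called at 2 h (0.127% of genes higher, 0.0973% lower) or at 6 h (0.374% higher, 0.195% lower) by limma on log2(FPKM + 0.5), with 13 and 9 members at an unadjusted p under 0.05 (21.2% and 26.5% of all tested genes). At 24 h, 1 gene was higher and 0 were lower, where 2.49% of all genes were higher and 0.906% lower. The median log2 difference at 24 h was 0.31 for the members and 0.21 for all genes, so the members lay close to the bulk of transcribed genes.

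The gene called was Rhob, which encodes a small GTPase of the actin cytoskeleton and of endosomes. Its nascent RNA was 15.2, 13.2 and 11.5 FPKM in DMSO and 27.7, 25.7 and 42.7 FPKM at 24 h, a log2 difference of 1.21 (SE 0.185, adjusted p = 0.000839 by limma). All 3 libraries at 24 h lay above DMSO, but the highest is replicate 3, the shallowest nascent library (relative depth 0.885, against 3.32 in replicate 1), and the call was lost without it. It was also lost after centring each library on its own median, as the median gene lay 0.21 higher at 24 h on the log2 scale. Without the 2-fold limit, 21 of the 48 members were higher and 3 lower by adjusted p, where 32.3% and 5.59% of all tested genes were. Cald1 rose from 1.01, 1.09 and 1.14 FPKM to 2.47, 2.62 and 2.32 FPKM (log2 difference 0.91, adjusted p = 0.000131 by limma) and Krt18 from 5.67, 5.32 and 4.44 FPKM to 8.19, 9.85 and 9.26 FPKM (0.77, adjusted p = 0.00449 by limma). Vim fell from 1.46, 1.11 and 1.45 FPKM to 0.801, 0.816 and 0.832 FPKM (log2 difference -0.48, adjusted p = 0.00845 by limma), and the other genes that fell were Edn1 and Serpinb9b. Nascent and steady-state RNA thus differed in direction at 24 h for Krt18, while both were lower for Vim.

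**Figure D3:**
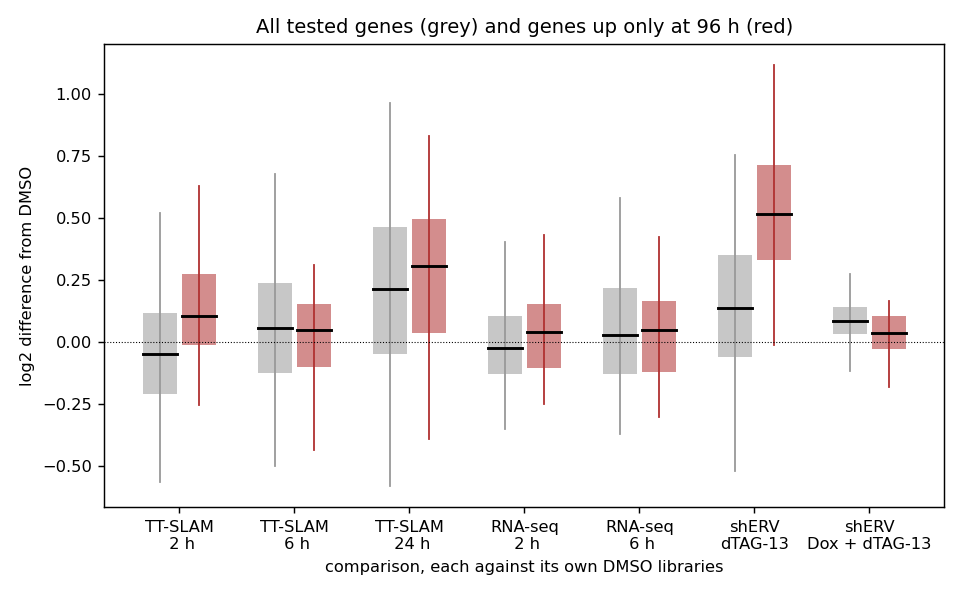
Log2 difference from the matching DMSO libraries for all tested genes (grey) and for the genes up only at 96 h (red) in 7 comparisons. Boxes span the middle 50% of genes, black lines are medians and thin lines reach from the 5th to the 95th percentile. The red median is 0.52 in the shERV line on dTAG-13, against 0.14 for all genes, and lies between 0.04 and 0.31 in the other comparisons.

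Most members were higher after 24 h of dTAG-13 in the shERV line, by small amounts. With dTAG-13, 13 of 163 tested members were higher than in DMSO and 0 were lower (8.0% of the members, where 2.38% of all 16166 tested genes were higher and 1.44% lower), by limma with Benjamini-Hochberg adjustment. The members' median log2 difference was 0.52 against 0.14 for all genes. In 144 members every dTAG-13 library lay above every DMSO library, as in 45.0% of all tested genes, and in 2 every one lay below, as in 14.0%. Without the 2-fold limit, 140 members were higher and 3 lower by adjusted p, where 41.2% and 12.8% of all tested genes were, the 3 being Dlx2, Nts and Serpine2. Since DMSO replicate 1 of this line stood apart, the count was repeated without it and was 10, with Fam20c, Rhob and Tagln no longer called. After centring each library on its own median it was 8.

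The 13 genes included Endou and Sox17, which are among the 10 members with the largest 96 h ratios, and genes with smaller ones. Endou, a placental endoribonuclease, had 1.32, 1.49 and 1.24 TPM in DMSO, 8.56, 7.46 and 7.44 TPM with dTAG-13 and 1.72, 1.39 and 1.10 TPM with Dox and dTAG-13 (dTAG-13 against DMSO, log2 difference 2.17, adjusted p = 1.21e-07 by limma). Sox17 had 0.354, 0.795 and 0.583 TPM in DMSO, 3.77, 3.36 and 4.62 TPM with dTAG-13 and 1.25, 1.03 and 0.361 TPM with Dox and dTAG-13 (2.05, adjusted p = 3.04e-05 by limma). S100a6 had 220, 248 and 229 TPM, then 545, 536 and 521 TPM, and with Dox 239, 247 and 244 TPM (1.20, adjusted p = 7.22e-09 by limma). For these genes the libraries with Dox and dTAG-13 lay near those with DMSO and apart from those with dTAG-13.

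Tagln was at 655, 711 and 710 TPM in DMSO, at 1446, 1333 and 1389 TPM with dTAG-13 and at 699, 710 and 676 TPM with Dox, a log2 difference of 1.01 for dTAG-13 against DMSO. Rhob, the gene also called in nascent RNA, had 63.0, 71.2 and 73.9 TPM, then 148, 139 and 142 TPM, and with Dox 77.7, 78.1 and 77.4 TPM (1.04, adjusted p = 6.55e-08 by limma). The other genes called were Mctp1, Cap2 (an actin-binding protein), Cadps, Mgll (the lipase of monoacylglycerols), Rnf128, Klhdc8a, Fam20c (a kinase of secreted proteins) and Dlk2. Acta2, which had the largest 96 h ratio of the 8 members above 1000 TPM, was at 585, 601 and 602 TPM in DMSO and at 674, 593 and 643 TPM with dTAG-13, with overlapping groups, while Krt18 went from 793, 891 and 887 TPM to 1343, 1262 and 1349 TPM without overlap.

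**Figure D4:**
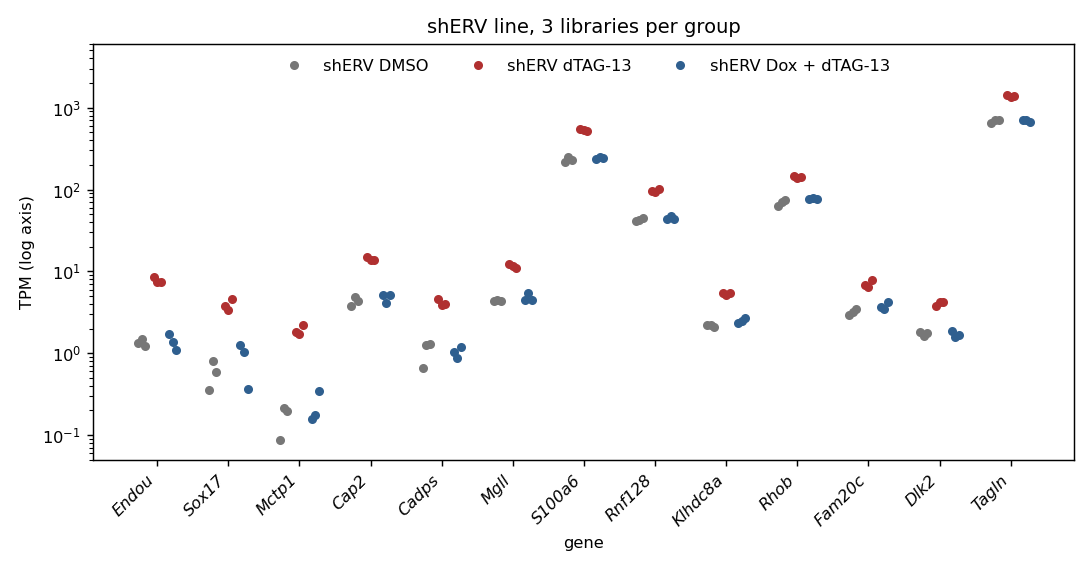
TPM on a log axis in each of the 9 shERV libraries for the 13 genes called higher with dTAG-13 than with DMSO. Points are libraries (grey DMSO, red dTAG-13, blue Dox and dTAG-13). For each gene the red points lie above the grey and blue ones, which lie close together.

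With Dox added to dTAG-13 the members stayed near the DMSO level. None of 163 was called against DMSO (0.00619% of genes higher, 0.0124% lower by limma, 16 members and 18.0% of all tested genes at an unadjusted p under 0.05), and the members' median log2 difference was 0.04 against 0.09 for all genes. Against dTAG-13 alone, 0 were higher and 9 were lower, where 1.49% of all genes were higher and 1.96% lower: Endou (-2.14), Mctp1 (-1.75), Sox17 (-1.73), Cadps (-1.61), Cap2 (-1.46), Mgll (-1.21), S100a6 (-1.13), Rnf128 (-1.10) and Dlk2 (-1.03 on the log2 scale). All 9 belong to the 13 called above, but both comparisons use the same dTAG-13 libraries, so the shared genes are no second line of evidence. In 142 members every dTAG-13 library lay above all 6 of the others, against 34.4% of all tested genes. Of the 165 genes, 163 had a higher mean in shERV DMSO than in time-course DMSO (24.4% of all tested genes did). The library kits differ between these sets and the cultures may. The rule also divided by the time-course DMSO mean, which favours low values there, so nothing is read from this count. The fibroblast markers that are not members summed to 188-206 TPM in shERV DMSO, 323-346 TPM with dTAG-13 and 206-214 TPM with Dox. They did not all rise with the sum. Mean Col1a1 was 72.4 TPM in shERV DMSO and 70.6 TPM with dTAG-13, Col1a2 23.6 and 18.7 TPM, and Col3a1 5.37 and 3.43 TPM. Thy1 went from 3.49 to 5.88 TPM and Fbn1 from 3.92 to 6.08 TPM, so most of the rise in the sum lay in other genes of the list. The part of these markers in the members' levels was not tested.

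Genes that already rose at 24 h in the time course served as a comparison: 84 genes had ratios of at least 2 at 24 h and met the 96 h rule. In shERV cells on dTAG-13, 21 of these 84 were called higher (25.0%) with a median log2 difference of 0.72, against 13 of 163 and 0.52 for the genes up only at 96 h. In nascent RNA at 24 h, 12 of 40 were called higher (30.0%) with a median of 0.82, against 1 of 48 and 0.31. The 2 sets were separated by the 24 h ratio, so the gap between them is a description.

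The neural progenitors and parental mESCs gave the members' levels without dTAG-13, though the parental RNA may hold feeder RNA. Of the fibroblast markers, Col1a1 had means of 36.0 TPM in parental cells and 0.681 TPM in NPCs, and Thy1 of 25.4 and 0.208 TPM. Fbn1 (3.42 and 8.38 TPM) and Twist1 (2.22 and 19.6 TPM) went the other way. The part of feeder cells in the differences below was not tested. Of 132 members tested, 67 were higher and 39 lower in NPCs than in parental mESCs, where 31.7% of all genes were higher and 18.7% lower by limma. Centring each library on its own median gave 50 higher and 46 lower, since the median gene lay 0.28 higher in NPCs, and without one of the parental libraries 16 or 17 were lower because 22 called members then failed the filter on low values. Among the higher genes, Cdh2 (N-cadherin) went from a mean of 2.12 ± 0.210 TPM (SD, n = 3) in parental cells to 351 ± 1.37 TPM in NPCs, Kitl from 0.858 to 79.1 TPM, and Vim, at 1271 TPM after 96 h of dTAG-13, from 196 to 2049 TPM. Among the lower genes were S100a6 (53.6 to 1.04 TPM), Anxa1 (15.2 to 0.0385 TPM), Tagln (39.3 to 1.13 TPM) and Acta2 (44.6 to 3.88 TPM). The actin list split accordingly, with 4 of its 11 members higher and 6 lower, or 1 and 7 after centring, while all 3 members of the axon guidance list (Nrp1, Sema3c and Flrt3) were higher. A mean at 96 h above that in NPCs was found for 143 of the 165 genes, and 53 were under 1 TPM in NPCs. The rule chose genes for high 96 h means, which favours the first count. Neither count has a share over all genes beside it, so nothing is read from them. Parental mESCs carried less of the members than the tagged line in DMSO, with sums of 1828 to 1830 TPM against 4122 to 4241 TPM and lower means in 140 of 165 genes (60.8% of all tested genes were lower), Krt8 standing at 13.5 TPM and Krt18 at 10.8 TPM.

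ChIP-seq peaks showed how the members' starts were marked in DMSO and at 24 h. The same number of top-ranked peaks was kept in each library of a mark, and a gene counted as marked when a peak lay within 1 kb of its outermost annotated start. This matched the number of peaks and not their width: the kept MED23 peaks of the DMSO libraries summed to 18.7 and 19.4 Mb, those of 24 h to 6.70 and 6.01 Mb, and for RNAPII these lengths were 8.30 and 8.06 Mb against 3.52 and 3.18 Mb. The part of this narrower coverage in the shares was not tested. MED23 peaks marked 31.2% ± 0.429 (SD, n = 2) of the 165 genes in DMSO and 15.2% ± 0 at 24 h, a difference of -16.1 percentage points (exact permutation test, two-sided, p = 0.33, the smallest that 2 against 2 libraries allow). Over all 17922 tested genes the shares were 35.2% and 22.4%, also lower at 24 h. Members marked in both DMSO libraries and in no 24 h library numbered 18, among them Tagln, Ctsd and Cd44. This count has no share over all tested genes beside it, so nothing is read from it.

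RNAPII peaks marked 11.2% ± 1.29 (SD, n = 2) of the members in DMSO and 8.48% ± 0 at 24 h, and 35.9% and 28.7% of all tested genes (exact permutation test between treatments, p = 0.33). The rule favours genes with low levels in DMSO and at 24 h, and the tested genes were not matched to them in level. Nothing is therefore read from the gap between members and all tested genes, for RNAPII or for H3K27Ac. H3K27Ac marked 24.8%, 22.4% and 18.2% of the members in the DMSO libraries and 12.7%, 27.3% and 4.85% at 24 h (means 21.8% and 14.9%; exact permutation test, two-sided, p = 0.4, where 3 against 3 cannot go below 0.1). The 24 h libraries spread widely and overlapped DMSO, and all tested genes spread with them (43.4%, 55.0% and 30.6%). H3K9me3, the repressive mark that TRIM28 recruits at ERVs, marked 1 member in 1 DMSO library and 0 of 165 in each 24 h library, which allows a share of up to 2.28% (95% Wilson interval). Over all tested genes the mean shares were only 1.00% in DMSO and 0.491% at 24 h, so nothing is read from the members' low counts.

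**Figure D5:**
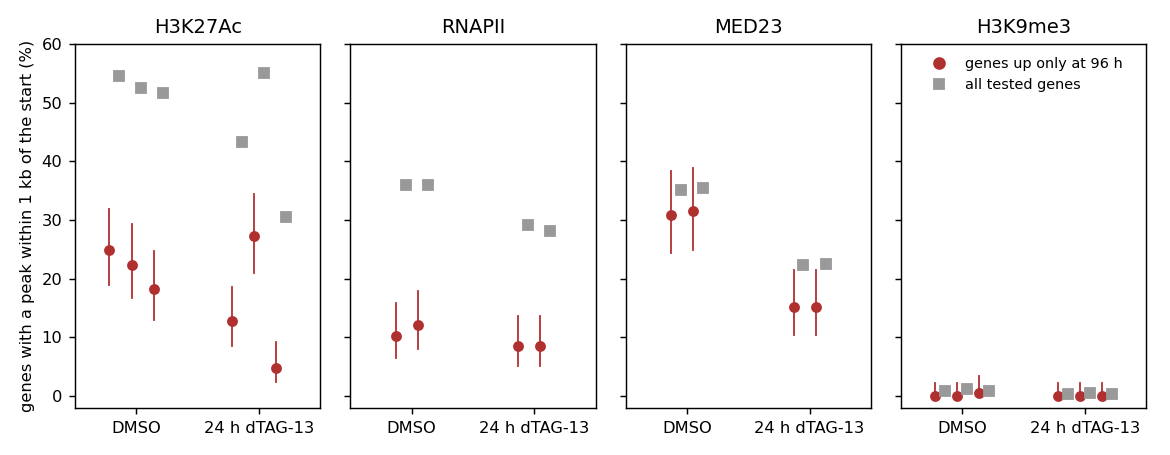
Share (percent) of the genes up only at 96 h (red, with 95% Wilson intervals that cover counting error only) and of all tested genes (grey) with a peak within 1 kb of the start, for each ChIP-seq library with DMSO and with 24 h of dTAG-13. Red points lie under grey ones for H3K27Ac and RNAPII, and MED23 points lie lower at 24 h in both sets. The red and grey sets were not matched in expression level.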

How the data were processed

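The authors aligned the reads to mm10 (GRCm38), and per the submitters' notes trimmed them with cutadapt 2.4, aligned RNA-seq with STAR 2.7.5a and quantified genes with StringTie 2.0.6. The deposited RNA-seq tables hold TPM, FPKM (not used) and mean read coverage per gene, and the deposited TT-SLAM-seq table holds FPKM. The deposited ChIP-seq peak lists give each peak's fold enrichment, a score and −log10 p and q values, called per sample by MACS2. No counts per gene were used, so tests were run on log values. Depth is known only in relative terms, from coverage per TPM in RNA-seq and from the commonest ratio between libraries among low genes in TT-SLAM-seq.

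Genes with at least 1 TPM (RNA-seq) or 0.5 FPKM (TT-SLAM-seq) in 3 libraries of a fit were tested with the moderated linear models of limma 3.58.1 (R 4.3.3), letting the prior variance follow the mean level, on log2(value + 0.5), with Benjamini-Hochberg adjustment over all tested genes. A gene was called at an adjusted p under 0.05 and more than 2-fold on that scale, which understates changes of low genes. The time course, the TT-SLAM-seq libraries and the shERV line were each fitted whole, and NPCs and parental cells together. ChIP-seq shares were compared by exact permutation tests (Python 3.11.15, scipy 1.17.1) over libraries. Peaks were ranked by fold enrichment and cut to equal numbers per library within a mark: 30259 for H3K27Ac, 11474 for H3K9me3, 7689 for RNAPII and 14551 for MED23. Scripts were tested on simulated data.

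The members and gene lists were chosen with earlier results of these data known. Members were named when they had the 25 highest 96 h ratios or the 10 highest 96 h levels, stood at a limit of the rule, were among the 10 largest changes of a comparison, or belonged to a list or family. Other members named for their role (Cav1, Cavin1, Cavin3, Ehd2, Zeb2, Cd44, Fam20c) were chosen after their values were seen. No sequence was read for the 6 members on chromosome 18. Replicate numbers did not pair the libraries. Alternatives were other pseudocounts and filters, centring, a replicate block and leaving out libraries.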

Additional observations from a re-analysis of the deposited data

Results flagged for a closer look

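At 24 h, 29 of the genes up only at 96 h moved in opposite directions in the 2 experiments, without overlap between groups: they were lower with dTAG-13 than with DMSO in the time course and higher in the shERV line. In all, 33 members were lower at 24 h in the time course and 144 were higher in the shERV line, so that 87.9% of those lower at 24 h were higher in the shERV line against 88.3% of all 163 members. Over all 15530 genes tested in both, 27.4% of the 4373 lower at 24 h were higher in the shERV line. The difference between the experiments was not tested, the rule limits how high a member can be at 24 h in the time course, and the libraries differ in kit, which cannot be told apart from the line.

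Values follow for those of the 29 with the largest or most abundant 96 h levels or ratios. Lgals1 went from 313 to 178 TPM in the time course (means of 3 libraries) and from 850 to 1192 TPM in the shERV line, a log2 difference of 0.49 there. Krt8 went from 410 to 269 TPM and from 634 to 940 TPM (0.57), Krt18 from 409.7 to 370.0 TPM and from 857 to 1318 TPM (0.62), and Vim from 188 to 118 TPM and from 605 to 695 TPM (0.20). S100a6 went from 70.8 to 48.4 TPM and from 232 to 534 TPM (1.20), and Anxa1 from 33.6 to 20.1 TPM and from 148 to 187 TPM (0.34). At lower levels, the log2 difference in the shERV line was 0.25 for Actg2, 0.50 for Nrp1, 0.56 for Igfbp6 and 0.40 for Serpinb9b.

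For 1 member, Serpine2, an inhibitor of thrombin and plasminogen activators, the directions were reversed. It had a mean of 13.5 TPM in DMSO and 17.7 TPM at 24 h in the time course, against 36.4 and 33.0 TPM in the shERV line.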

How the results depend on the processing

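Counts of called members at 2 h and 6 h, in RNA-seq and in nascent RNA, and in Dox and dTAG-13 against DMSO, were 0 under every alternative run. For TT-SLAM-seq at 24 h the count higher was 2 at a pseudocount of 0.1, adding Cald1, 0 with every library centred on its median, and 0 to 1 when libraries were left out in turn, 0 without 24 h replicate 3. For shERV dTAG-13 against DMSO, 13 became 6 when a mean of at least 5 TPM was required, as 7 were not tested, 8 with centring, and 10 to 15 when libraries were left out. For Dox and dTAG-13 against dTAG-13, the 9 lower became 14 at a pseudocount of 0.1, 4 at a mean of at least 5 TPM, where 5 were not tested, and 8 to 12 when libraries were left out. In NPCs the 39 lower became 21 at a mean of at least 5 TPM and 16 to 39 when libraries were left out, and the 67 higher ranged from 48 to 67.

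With all deposited peaks the change in share of marked members was -2.02 percentage points for H3K9me3, -14.5 for RNAPII and -63.0 for MED23 (-24.7 and -50.2 over all genes for the last 2), where the libraries hold different numbers of peaks. Within 2.5 kb of the start it was -0.81 for H3K9me3 and -13.9 for MED23, and with 50% of the top peaks -8.18 for MED23. With libraries left out in turn it ran from -13 to -1.82 for H3K27Ac, -0.303 to 0 for H3K9me3, -3.64 to -1.82 for RNAPII and -16.4 to -15.8 for MED23. No exact test could pass 0.05.

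The replicate block left the counts at 1 (nascent RNA at 24 h), 13 and 9 (shERV) and 67 and 39 (NPCs) and changed no other call. Same-numbered libraries did not deviate together, with correlations of -0.158 to 0.177 in TT-SLAM-seq, -0.0576 to 0.123 in the time course, -0.205 to 0.0603 in the shERV line and -0.00457 to 0.0297 in NPCs and parental cells, so the number is no pairing.

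The shallow 24 h RNA-seq replicate 1 limits the 24 h ratio of low members, and 117 members were too low in nascent RNA to test. Reads of Krt8 and Krt8-ps, and of Ly6a and Ly6c1, can be split between copies.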

Other observations

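Members in further lists were described by their count alone. Lipid mediators were represented by Ptgs2 and Ptges, the enzymes that make prostaglandin E, with means of 1.83 and 4.78 TPM in DMSO and 25.2 and 46.9 TPM at 96 h, and by the cholesterol exporter Abca1, at 1.32 and 12.8 TPM. They were 3 of 33 measured lipid and sterol genes, and of the other 30, 9 were higher and 1 lower at 96 h (20.3% and 12.4% of all tested genes). The lysosomal protease Ctsd was at 119, 123 and 113 TPM in DMSO and 704, 690 and 678 TPM at 96 h, and of the 29 measured genes of a list of lysosomal proteins and proteases that are not members, 18 were higher and 1 lower.

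Outside the 2 h, 6 h and 24 h groups, and with kits and cultures that differ, levels put the summed members at 1828 to 1830 TPM in parental mESCs, 4122 to 4241 TPM in the tagged line in DMSO, 5527 to 5630 TPM in NPCs, 9976 to 10918 TPM in shERV DMSO, 10765 to 11126 TPM with Dox and dTAG-13, 15054 to 15822 TPM with dTAG-13 in shERV and 30597 to 31164 TPM at 96 h. The ranges of shERV DMSO and of Dox and dTAG-13 overlapped, and no others of these groups did. Individual genes broke this order: Cdh2, at 63.2 TPM after 96 h, was at 351 TPM in NPCs, and Acta2, at 1170 TPM after 96 h, was at 3.88 TPM there.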
